A study of Homo sapiens with 4 samples.

Results

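The genes described here are those of the human ZNF series, named ZNF and a number, that gave clear signal in CaSki cells, a papillomavirus-positive cervical carcinoma line. A probe set is a group of short array probes for a transcript. It was taken when the platform annotation gave it exactly 1 gene symbol of the ZNF series other than ZNF750 and its mean log2 value over all 4 arrays was 7 or more. ZNF595 was added whatever its mean. The rule gave 158 genes with 207 probe sets, of 424 ZNF genes with 890 probe sets and 19775 genes with 54675 probe sets in the whole table. Of the 207, 206 lay at 7 or more, and the other is the dim ZNF595 probe set. The members were thus selected on their mean level over all arrays, which does not use the difference between groups. ZNF595 was chosen for its rise, so its values are a description, it has no test, and it is left out of the counts of calls below unless they name it. That leaves 205 probe sets of 157 genes.

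The series was made to find targets of ZNF750, a transcription factor of squamous epithelia. Total RNA came from CaSki cells infected with lentivirus that carried GFP (2 arrays) or ZNF750 (2 arrays), and was hybridized to Affymetrix HG-U133 Plus 2.0 arrays. Both groups were kept in DMEM with antibiotics, with fetal bovine serum listed at 0%, and both carried a lentiviral insert. The submitters describe biological duplicates but not how the cultures were made, so the p-values measure only the spread between these arrays, which may be technical. The promoter of the vectors and the time after infection are not given in the sources used here. All values are on the log2 scale of RMA, differences are ZNF750 minus GFP, ± is limma's standard error of that difference (n = 2 arrays per group), and a call is a Benjamini-Hochberg adjusted p under 0.05 over all 54613 probe sets that are not controls.

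The only probe set of ZNF750 itself (219995_s_at) read 2.13 and 2.37 on the GFP arrays and 2.23 and 2.29 on the ZNF750-labelled arrays, so it does not check the labels. Of 10 epithelial marker genes, 8 were measured and all 8 lay at 7 or more (11.1 to 13.0 for the brightest probe set of each). Of these 3 were called higher and 2 lower, and their summed level was 97.5 to 97.6 with GFP and 98.7 to 98.8 in the ZNF750-labelled group. Of the markers for other cell types only 1 fibroblast gene of 6 lay at 7 or more. The summed level of the fibroblast markers was 29.7 to 30.1 with GFP and 30.8 to 31.1 in the ZNF750-labelled group, with 0 of the 6 genes called. The leukocyte sums were 13.7 to 14.3 and 14.0 to 14.4, and the endothelial sums 14.8 to 15.4 and 15.1 to 15.3. For ACTB, the 3′ control probe set exceeded the 5′ one by 3.03 and 2.81 with GFP and by 3.76 and 3.35 in the ZNF750-labelled group. This measure of RNA integrity and labelling, and the epithelial and fibroblast sums, move with every comparison below, and their part in it was not tested. In a bulk sample, fewer cells of a kind and less RNA per cell cannot be told apart.

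ZNF proteins carry repeated zinc fingers, short folds in which cysteines and histidines hold a zinc ion and whose side chains read DNA. Many of them also carry a KRAB box near the amino end, which binds the corepressor TRIM28. TRIM28 in turn gathers the methyltransferase SETDB1, HP1 proteins and the NuRD complex, and is best known for silencing transposable elements. KRAB genes arose by repeated local duplication, and many stand in clusters on chromosome 19. ZNF proteins without the box are a mixed group of activators, corepressor partners, RNA-binding proteins and ribosome or spindle factors. ZNF750 is known from epidermal cells as a differentiation factor that acts with KLF4 and with CoREST and CtBP corepressors, and its reported binding motif is CCNNNAGG.

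Promoters of the members were searched for that motif on both strands (CCNNNAGG and CCTNNNGG), in the 250 bases before the start of each gene as RefSeq places it on GRCh38.p14. Of the 157 genes, 133 had a promoter in the RefSeq table, and 93 of these (69.9%) held at least 1 match. Among 15842 protein-coding promoters of the same length the share was 57.9%, and among all 27305 it was 52.2%. The members' promoters had a median of 20 CG dinucleotides against 17 for protein-coding genes. KRAB promoters held a match in 75% (median of 18.5 CG) and those without the box in 62.9% (median of 21). The part of base composition in these shares was not tested. A match was found for 17 of the 22 genes called higher, 2 of the 6 called lower and 74 of the 105 not called. These are descriptions of letters and not of binding. Shown are the promoter of ZNF595, the member with the largest difference, those of 2 members that rose (ZNF432 and ZNF146), and that of ZNF207, which had the largest fall. Capitals mark the match, and ZNF207 has none in this window. ZNF114, ZNF721 and ZNF827 were not in the table.
ZNF595 (chr4:53071-53320, plus strand): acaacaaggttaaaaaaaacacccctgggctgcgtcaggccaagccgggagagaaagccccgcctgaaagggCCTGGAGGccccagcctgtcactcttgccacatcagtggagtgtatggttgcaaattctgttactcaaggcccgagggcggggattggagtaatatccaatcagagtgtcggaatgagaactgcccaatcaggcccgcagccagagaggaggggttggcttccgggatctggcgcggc
ZNF432 (chr19:52048839-52049088, minus strand): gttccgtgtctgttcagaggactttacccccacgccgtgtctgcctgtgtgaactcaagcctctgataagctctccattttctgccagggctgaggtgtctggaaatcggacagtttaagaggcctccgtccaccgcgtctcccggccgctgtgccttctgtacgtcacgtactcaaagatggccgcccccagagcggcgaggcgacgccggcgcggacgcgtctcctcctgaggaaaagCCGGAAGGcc
ZNF146 (chr19:36214856-36215105, plus strand): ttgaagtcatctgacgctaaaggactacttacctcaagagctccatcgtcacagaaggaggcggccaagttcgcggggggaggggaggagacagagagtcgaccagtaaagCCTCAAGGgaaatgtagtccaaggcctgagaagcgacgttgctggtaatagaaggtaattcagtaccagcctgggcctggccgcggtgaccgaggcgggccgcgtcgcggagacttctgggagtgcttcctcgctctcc
ZNF207 (chr17:32349907-32350156, plus strand): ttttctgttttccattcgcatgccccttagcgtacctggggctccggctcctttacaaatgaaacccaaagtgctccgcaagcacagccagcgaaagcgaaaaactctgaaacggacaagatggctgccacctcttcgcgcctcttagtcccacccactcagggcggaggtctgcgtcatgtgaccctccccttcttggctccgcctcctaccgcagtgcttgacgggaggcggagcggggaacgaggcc
The first base of the match lies 178 bases before the start in ZNF595, 139 in ZNF146 and 10 in ZNF432. ZNF432 has other listed starts, of which the first was used.

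Under the deposited scaling more members were higher than lower in the ZNF750-labelled group, while probe sets at 7 or more as a whole were more often lower. Of the 205 probe sets, 28 (26 genes) rose, 15 (9 genes) fell and 162 did not pass. Among all 15660 probe sets with a mean of 7 or more, limma called 28.5%, of which 9.07% of the probe sets were higher and 19.4% lower. Over all 54613 the share was 11.5%, with 4.3% higher and 7.19% lower. The members' shares were 13.7% higher and 7.32% lower. Their median difference was 0.057, with the middle 50% from -0.075 to 0.19, against a median of -0.051 at 7 or more and 0.026 over all probe sets. The balance of calls moved with the scaling. Centring each array on its brighter probe sets gave 50 members higher and 13 lower, cyclic loess 40 and 12, and a second quantile normalization 41 and 12. Of all calls 62.6% were lower as deposited and 42.0% after centring.

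The sizes were small. The median absolute difference between the group means was 0.15, and that between duplicate arrays was 0.089 with GFP and 0.082 with ZNF750. Standard errors ran from 0.038 to 0.17. In 140 of the 205 probe sets (68.3%) the groups did not overlap, 88 of them higher (42.9%) and 52 lower (25.4%). Of all probe sets at 7 or more, 72.7% did not overlap, 28.2% higher and 44.5% lower, so the members' total is no higher than the background. Every one of the 43 called probe sets was among these 140. The smallest called difference was 0.20, and 5 called probe sets passed a fold of 1.5.

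The number of calls fell sharply when any array was left out. Each such fit leaves 1 array in a group and 1 residual degree of freedom, so the other group alone gives the spread and the lone array is assumed to vary like it. Without GFP replicate 1, and likewise without GFP replicate 2, limma called 0 of the 205 higher and 0 lower. Without ZNF750 replicate 1 it called 5 and 2, and without ZNF750 replicate 2 it called 3 and 0. Over all probe sets those 4 fits gave 8 to 267 higher and 1 to 661 lower. All 28 and all 15 kept their sign in each of the 4 fits, which share 3 of the 4 arrays with the full fit. That outcome was fixed in advance, since the groups of every called probe set did not overlap. The difference of ZNF114 ran from 0.74 to 0.82 and that of ZNF432 from 0.50 to 0.69. With no intensity trend in limma's variance prior, 5 members were higher and 4 lower.

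ZNF595 had the largest difference of any member. Its probe set 227952_at read 6.01 and 6.70 with GFP and 8.02 and 8.13 in the ZNF750-labelled group. Both ZNF750-labelled arrays lay over a log2 unit above the higher GFP array, and the GFP arrays differed from each other more than the ZNF750-labelled ones did. The difference was 1.72 ± 0.20, or 3.29-fold. The gene's other probe set, 1570038_at, is dim and read 3.66 and 3.62 against 3.48 and 3.79, so the groups overlapped. A dim probe set shared by ZNF718 and ZNF595 differed by -0.15 and one shared by ZNF718, ZNF595 and ZNF208 by -0.13. The probe sets of ZNF718 alone differed by -0.093 and -0.13. The difference therefore rests on 1 probe set. ZNF721, another KRAB gene of chromosome 4, read 10.02 and 10.03 with GFP and 10.29 and 10.41 with ZNF750 (215978_x_at), a rise of 0.32 (adjusted p = 0.0124).

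KRAB genes supplied most of the rises. The class was assigned by hand from general knowledge, since protein sequences were not used here. In it, 18 of 89 probe sets (16 of 75 genes) rose and 2 fell, or 20.2% and 2.25%. The other 69 were not called, and the median was 0.12. At 7 or more, 9.07% of all probe sets were higher and 19.4% lower. Without the box, 9 of 107 probe sets (73 genes) rose and 13 fell, or 8.41% and 12.1%, so the share of rises was near that background. The other 85 were not called, and the median was 0.021. Counted by gene, 9 rose and 7 fell, and with the brightest probe set per gene the counts were 9 and 5. The split by probe set also turned round under the scalings, with 16 higher and 11 lower after loess, 20 and 12 after centring and 17 and 11 after the second quantile normalization. In the KRAB class the same settings gave 22 and 1, 27 and 1, and 22 and 1. Over all 54613 probe sets they gave 3141 and 3710, 4712 and 3406, and 3204 and 3630, against 2348 and 3927 as deposited. ZNF207 alone supplied 5 of the 13 falls, and without it, an exclusion chosen after seeing the data, the count was 9 and 8 and the median 0.041. The difference between the classes was not tested. Of the 9 probe sets left unclassified, 1 rose (ZNF70) and none fell, with 3 higher and 2 lower at an unadjusted p under 0.05. At that unadjusted threshold limma gave 2700 higher and 5015 lower of all 15660 probe sets at 7 or more.

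Array by array, the KRAB median relative to the GFP mean was 0.16 on ZNF750 replicate 1 and 0.074 on replicate 2, with 0.042 and -0.042 on the GFP arrays. The ZNF750-labelled arrays both lay above both GFP arrays. For members without the box the values were 0.032 and -0.0014, with 0.018 and -0.018 on the GFP arrays, so the groups overlapped. All probe sets at 7 or more lay at -0.036 and -0.064, with 0.013 and -0.013 for GFP.

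**Figure D1:**
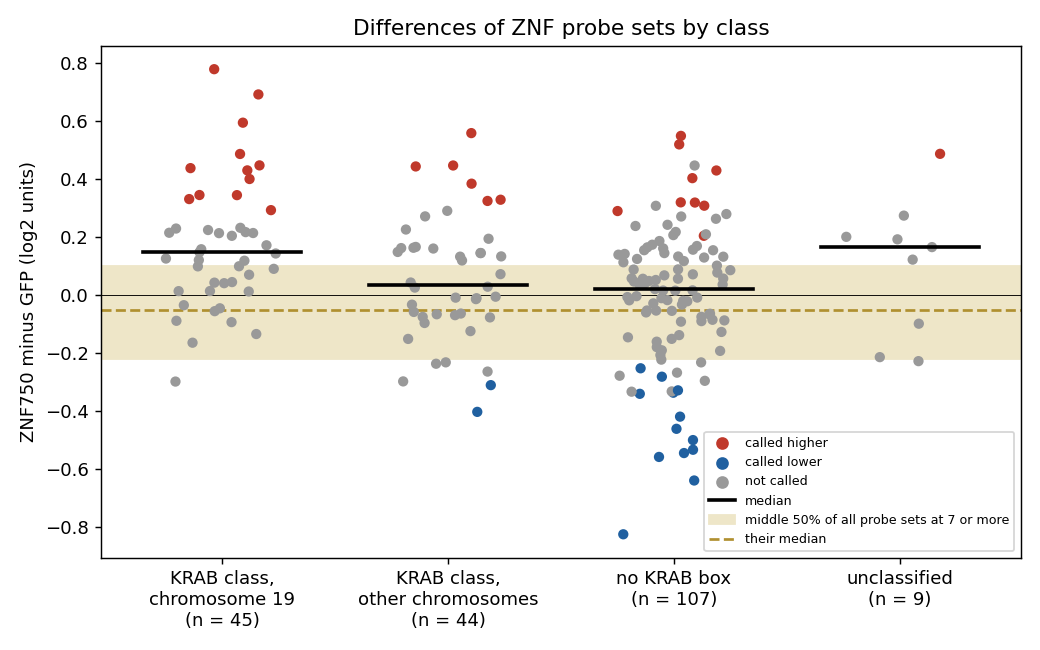
Difference between the ZNF750 and GFP group means (log2 units) of each of the 205 member probe sets without ZNF595, by class, with called probe sets coloured and the class median as a bar. The KRAB class on chromosome 19 holds 12 rises and 0 falls around a median of 0.15. The class without the box holds 9 rises and 13 falls (9 and 7 genes), and its probe set split turned round under the other scalings.

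The largest called rise was that of ZNF114, a KRAB gene of chromosome 19. Probe set 1552946_at read 9.44 and 9.36 with GFP and 10.14 and 10.21 with ZNF750, a rise of 0.78 ± 0.058 (adjusted p = 0.000635, 1.72-fold). Its other probe set rose by 0.69 ± 0.057 (adjusted p = 0.000945). The arrays of each group lay close together, and both probe sets separated the groups, as every called probe set did.

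ZNF432 (219848_s_at), also a KRAB gene of chromosome 19, read 8.29 and 8.27 with GFP and 8.97 and 8.79 with ZNF750. It rose by 0.59 ± 0.077 (adjusted p = 0.00446). ZNF23, a KRAB gene of chromosome 16, read 7.43 and 7.06 against 7.95 and 7.65, a rise of 0.56 ± 0.14 (adjusted p = 0.0482). Its groups did not overlap, but the GFP arrays stood apart by more than in ZNF432, and its call is close to the threshold.

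The next KRAB genes rose by similar amounts. ZNF302 (228393_s_at) read 7.32 and 7.09 against 7.73 and 7.65, a rise of 0.49 ± 0.097 (adjusted p = 0.0195), while its other 2 probe sets differed by -0.034 and 0.22 and did not pass. ZNF160 read 8.78 and 8.73 against 9.10 and 9.30 and rose by 0.45 ± 0.078 (adjusted p = 0.0125). ZNF268, on chromosome 12, read 7.15 and 6.88 against 7.47 and 7.46 and rose by 0.45 ± 0.10 (adjusted p = 0.0341). In each of these the ZNF750-labelled arrays were both above the GFP arrays, which the rule for naming required. With the mean of all probe sets of a gene, dim ones included, ZNF160 differed by 0.12 and ZNF268 by 0.25, and neither passed.

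ZNF12, on chromosome 7, rose on 2 of its 3 probe sets. Probe set 219571_s_at read 7.50 and 7.33 against 7.98 and 7.73, a rise of 0.44 ± 0.11 (adjusted p = 0.0393), and 1554021_a_at rose by 0.38 (adjusted p = 0.0158). The brightest, 226015_at, differed by 0.12 (adjusted p = 0.265). ZNF573 read 7.46 and 7.24 against 7.83 and 7.74 and rose by 0.44 ± 0.094 (adjusted p = 0.0256). ZNF611 (208137_x_at) read 7.79 and 7.85 against 8.20 and 8.30 and rose by 0.43 ± 0.073 (adjusted p = 0.0115). The remaining KRAB calls, outside the naming rule, were ZNF443 (0.40), ZNF426 (0.35), ZNF420 (0.34), ZNF529 (0.33), ZNF786 (0.33) and ZNF562 (0.29). ZNF420, also called APAK, is known to restrain p53.

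Both KRAB genes that fell lie outside chromosome 19. ZNF3, on chromosome 7, read 8.02 and 7.92 against 7.67 and 7.47 and fell by 0.40 on the log2 scale (SE 0.091, adjusted p = 0.0317). With the mean of all its probe sets, dim ones included, ZNF3 differed by only -0.075 (adjusted p = 0.650). ZNF7, on chromosome 8, read 8.01 and 7.92 against 7.71 and 7.60 and fell by 0.31 (SE 0.080, adjusted p = 0.0475). Neither group overlapped the other, but ZNF7 no longer passed after cyclic loess (adjusted p = 0.0523), centring (0.0586) or a second quantile normalization (0.0676). A dim probe set of ZNF7 outside the members, 234920_at with a mean of 4.17, went the other way, by 0.49 (adjusted p = 0.0498).

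**Figure D2:**
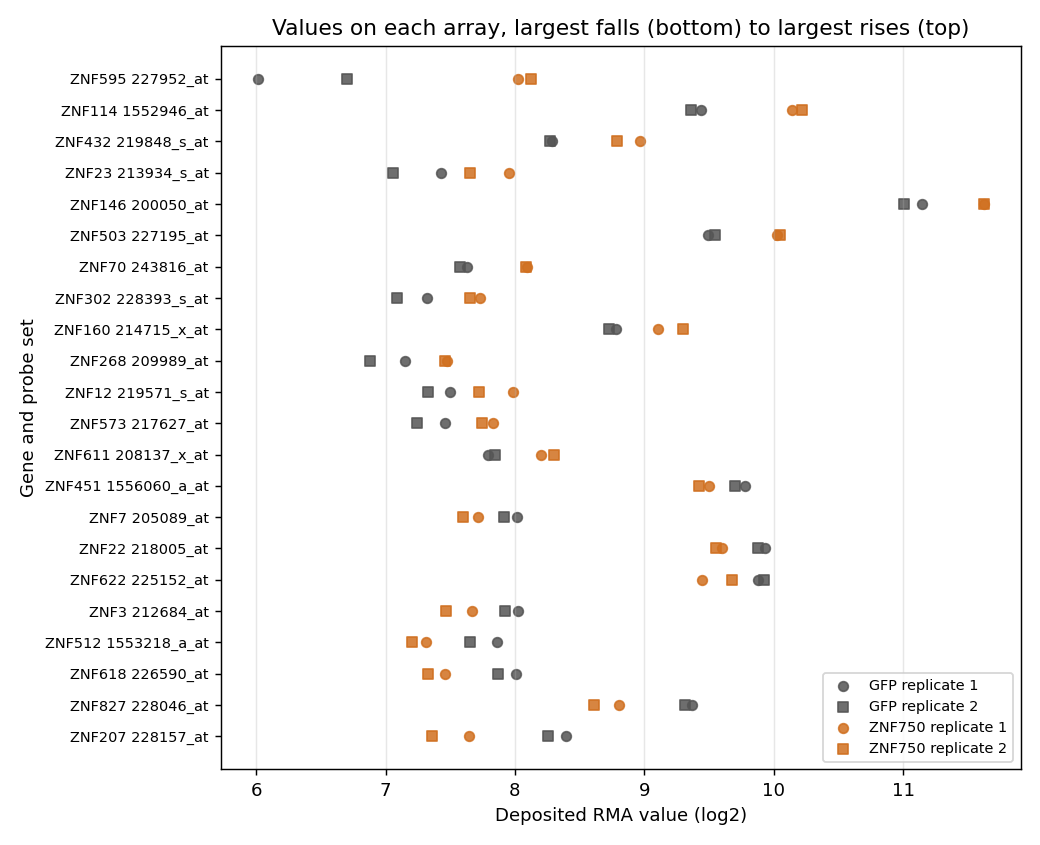
Deposited log2 value on each of the 4 arrays of ZNF595 and of the members with the largest called rises and falls, which were picked for groups that do not overlap, ordered from the largest fall at the bottom to the largest rise at the top, with 1 probe set per gene. The spread between duplicates is widest for ZNF595, at 6.01 and 6.70 with GFP.

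Among the members without a KRAB box, the largest rise was in ZNF146, a protein made almost only of fingers. Probe set 200050_at read 11.14 and 11.01 with GFP and 11.62 and 11.63 with ZNF750, a rise of 0.55 ± 0.053 (adjusted p = 0.00160). Its dimmer probe set 1554433_a_at differed by -0.29 ± 0.16 (adjusted p = 0.291). The first separated the groups, as every called probe set did, and the gene's probe sets did not share a sign.

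ZNF503, a corepressor of the NLZ family, read 9.49 and 9.54 against 10.03 and 10.05 and rose by 0.52 ± 0.053 (adjusted p = 0.00192). With the mean of all its probe sets, dim ones included, ZNF503 differed by 0.28 (adjusted p = 0.0884). ZNF703, its closest relative and an oncogene of luminal breast cancer, read 6.96 and 7.14 against 7.21 and 7.10, and the groups overlapped (0.10 ± 0.096, adjusted p = 0.561). ZNF70, unclassified here, read 7.63 and 7.58 against 8.10 and 8.08 and rose by 0.49 ± 0.071 (adjusted p = 0.00636). Whether ZNF503 and ZNF703 differ in their response was not tested.

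ZNF330, a nucleolar protein, rose on 213760_s_at (7.34 and 7.56 against 7.87 and 7.89, 0.43 ± 0.091, adjusted p = 0.0245). Its brighter probe set 209814_at differed by -0.14 (adjusted p = 0.414). ZNF292 rose on 212368_at (8.47 and 8.47 against 8.81 and 8.77, 0.32, adjusted p = 0.0180), while 212366_at differed by -0.017. The calls of both genes thus rest on 1 probe set of 2. The other called rises without the box were ZNF462 (0.40), ZNF367 (0.32), ZNF580 (0.31), ZNF185 (0.29), an actin-associated protein with a LIM domain in place of classical fingers, and ZNF395 (0.20), also known as papillomavirus binding factor.

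The largest fall was in ZNF207, also called BuGZ, which binds the checkpoint protein BUB3 and helps spindle assembly and kinetochore attachment. Probe set 228157_at read 8.39 and 8.26 with GFP and 7.64 and 7.36 with ZNF750, a fall of 0.82 on the log2 scale (SE 0.11, adjusted p = 0.00446). In all, 5 of its 6 member probe sets fell, the other 4 by 0.56, 0.53, 0.46 and 0.34. Its brightest, 200829_x_at, read 11.47 and 11.43 against 11.37 and 11.42 and differed by -0.053 ± 0.042 (adjusted p = 0.490). The 5 probe sets that fell separated the groups, as every called probe set did. The brightest had its ZNF750-labelled values just below the GFP values.

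ZNF827, which recruits the NuRD complex to telomeres, fell on 2 of 3 probe sets. Probe set 228046_at read 9.37 and 9.32 against 8.80 and 8.61 and fell by 0.64 (SE 0.077, adjusted p = 0.00350), and 226764_at fell by 0.42 (adjusted p = 0.0297). The third, 243618_s_at, differed by 0.016 (adjusted p = 0.902). ZNF618, known to bind hydroxymethylcytosine with UHRF2, read 8.01 and 7.87 against 7.46 and 7.33 (226590_at) and fell by 0.54 (SE 0.088, adjusted p = 0.00920). Its other 2 probe sets differed by -0.21 and -0.16 and did not pass.

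ZNF512 fell on both of its probe sets. The dimmer read 7.86 and 7.65 against 7.31 and 7.20 and fell by 0.50 (SE 0.097, adjusted p = 0.0181), and the brighter fell by 0.25 (adjusted p = 0.0344). ZNF622, a factor of large ribosomal subunit maturation, read 9.88 and 9.92 against 9.45 and 9.68 and fell by 0.34 (SE 0.080, adjusted p = 0.0371). It did not pass after cyclic loess (adjusted p = 0.0711) or a second quantile normalization (0.0554). ZNF593, another factor of that pathway, read 9.58 and 9.67 against 9.47 and 9.42 (-0.18 ± 0.059, adjusted p = 0.0998).

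ZNF22 (218005_at) read 9.93 and 9.88 against 9.60 and 9.55 and fell by 0.33 (SE 0.054, adjusted p = 0.0103), and its other probe set differed by -0.33 (adjusted p = 0.0810). ZNF451, a SUMO ligase, read 9.78 and 9.70 against 9.50 and 9.42 (1556060_a_at) and fell by 0.28 (SE 0.059, adjusted p = 0.0238). Its other probe sets differed by -0.22 and 0.078 and did not pass. Only 9 genes fell, so the falls named here are all of them.

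**Figure D3:**
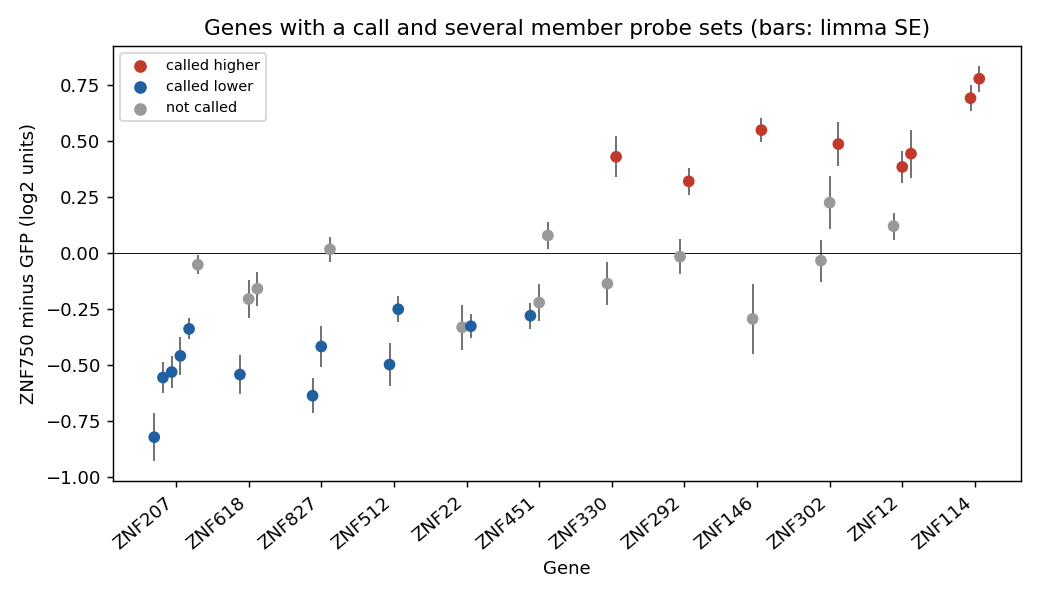
Difference between group means (log2 units, bars are limma's standard error) of every member probe set of the 12 genes, other than ZNF595, that have several member probe sets and at least 1 call. ZNF114 and ZNF512 were called on all of theirs, ZNF207 on 5 of 6, and ZNF146 shows 0.55 on one probe set and -0.29 on the other.

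Many genes were measured by more than 1 probe set. Of the 158 genes, 121 had 1 member probe set and 37 had more, up to 6. In 20 of the 37 all differences had the same sign, and in 0 were 2 probe sets called in opposite directions. Of the 13 with a call, ZNF595 included, 2 were called on all of their probe sets.

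Of the members fixed by role as regulators of transcription, ZNF143, ZNF217, ZNF148, ZNF281, ZNF24, ZNF592, ZNF532 and ZNF703 had no call. ZNF143, an activator of small nuclear RNA and other promoters, read 8.48 and 8.43 against 8.59 and 8.60 (0.14 ± 0.063, adjusted p = 0.204). ZNF217, an oncoprotein that works with CoREST and CtBP, read 8.89 and 8.75 against 9.20 and 8.99 (0.28 ± 0.088, adjusted p = 0.0897). Their groups did not overlap. ZNF217 was called higher after cyclic loess (adjusted p = 0.0241), centring (0.0108) and a second quantile normalization (0.0225), and with the replicate block (0.0386).

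ZNF148 and ZNF281, binders of GC-rich promoter elements, differed by 0.21 and 0.24 on the 2 probe sets of the first and by 0.12, 0.12 and 0.17 on the 3 of the second, all positive and none called as deposited. ZNF281 was called higher on 222619_at under the 3 other scalings (adjusted p = 0.0310 to 0.0426) and on 228785_at after centring (0.0451). ZNF148 was called on 203318_s_at after centring (0.0349) and the second quantile normalization (0.0480). ZNF24 differed by -0.23 (adjusted p = 0.121) and -0.13. ZNF592 and ZNF532, partners in a ZMYND8 complex, differed by -0.054, -0.0063 and 0.086 and by 0.057 and 0.21 (lowest adjusted p = 0.0796). The last of these, ZNF532 on 220617_s_at, was called higher under the 3 other scalings (0.0147 to 0.0250).

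The next members fixed by role work on RNA or silencing, and none of their member probe sets passed. ZNF598, the ubiquitin ligase of collided ribosomes, differed by -0.33 (adjusted p = 0.108) on one probe set and 0.068 on the other. ZNF346, which binds double-stranded RNA, differed by -0.15 and 0.036, and ZNF326, a subunit of a splicing and elongation complex, by -0.059. ZNF638, which silences unintegrated retroviral DNA with the HUSH complex, differed by -0.14, -0.064 and -0.019. With the mean of all its probe sets, which include dim ones, ZNF638 fell by 0.31 (adjusted p = 0.0346). Of its probe sets below a mean of 7, 239243_at, at 6.99, fell by 0.70 (adjusted p = 0.00366), and 1554249_a_at, at 4.68, fell by 0.60 (adjusted p = 0.0458). The list of genes fixed by role also held ZNF131, ZNF687, ZNF91 and ZNF267, which have no member probe set.

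Chromosome 19 held 61 of the 205 probe sets, from 53 genes. Of these 14 rose and 0 fell, with 22 higher and 1 lower at an unadjusted p under 0.05, and the median was 0.13. Of all 15660 probe sets at 7 or more, 9.07% were called higher and 19.4% lower. At an unadjusted p under 0.05, 2700 of the 15660 were higher and 5015 lower. The 727 chromosome 19 probe sets at 7 or more that are not members had 91 higher (12.5%) and 72 lower (9.9%), with a median of 0.041. As deposited, the rest of chromosome 19 thus also had more higher than lower calls, against 23.0% higher and 0 lower for the members. Whether the members differ from it was not tested. On all other chromosomes 14 of 144 rose and 15 fell, with a median of 0.028. Within the KRAB class, chromosome 19 gave 12 higher and 0 lower of 45 (median 0.15, 19 higher and 1 lower at an unadjusted p under 0.05), and the other chromosomes 6 and 2 of 44 (median 0.037). Members without the box on chromosome 19 gave 2 rises, ZNF146 and ZNF580, and 0 falls of 14 (median 0.093, 3 and 0 at an unadjusted p under 0.05). Under the 3 other scalings chromosome 19 kept 0 falls, with 16 to 21 rises, and the rest of the members gave 24 to 29 rises and 12 or 13 falls. All 54613 probe sets gave 3141 to 4712 rises under them, against 2348 as deposited, and 3406 to 3710 falls, against 3927. Chromosome and class overlap in these members, and the difference between them was not tested.

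Neighbouring genes were read side by side from the RefSeq gene table, as runs of consecutive zinc finger genes that hold at least 2 members. There were 19 such runs with 67 probe sets. Of these, 13 rose and 0 fell under the deposited scaling, and 17 to 22 rose and 0 fell under the others. Rises over all 54613 probe sets also went up, from 2348 as deposited to between 3141 and 4712. At an unadjusted p under 0.05 limma gave 22 of the 67 higher and 1 lower. Of all 15660 probe sets at 7 or more, 9.07% were called higher and 19.4% lower. At an unadjusted p under 0.05, 2700 of the 15660 were higher and 5015 lower. On chromosome 19 lie 40 of the 67, already counted in the paragraph above. The chromosome 19 probe sets at 7 or more that are not members had 12.5% higher and 9.9% lower, with a median of 0.041. The median was above 0 in 16 of the 19 runs, and on chromosome 19 in 11 of 12. Runs are named here by their first and last member, and genes that are not members can lie between or beyond these. The run named ZNF565 to ZNF420, of 24 genes with 5 members, had 3 rises among 6 probe sets and a median of 0.27. Its members were ZNF565 (0.22), ZNF146 (0.55 and -0.29), ZNF529 (0.33), ZNF567 (0.14) and ZNF420 (0.34).

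Other runs were mixed. From ZNF266 to ZNF562, ZNF426 (0.35) and ZNF562 (0.29) rose while ZNF266 (0.045) and ZNF121 (-0.098) did not pass. ZNF614 (0.21, adjusted p = 0.106) stands next to ZNF432 (0.59). The run from ZNF57 to ZNF77 had a median of -0.10. On chromosome 7, ZNF316 (0.15) lies beside ZNF12, and the run from ZNF786 to ZNF746, with 7 member genes, had 1 rise, ZNF786, of 8 probe sets and a median of -0.034. Neighbours therefore did not all move alike.

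**Figure D4:**
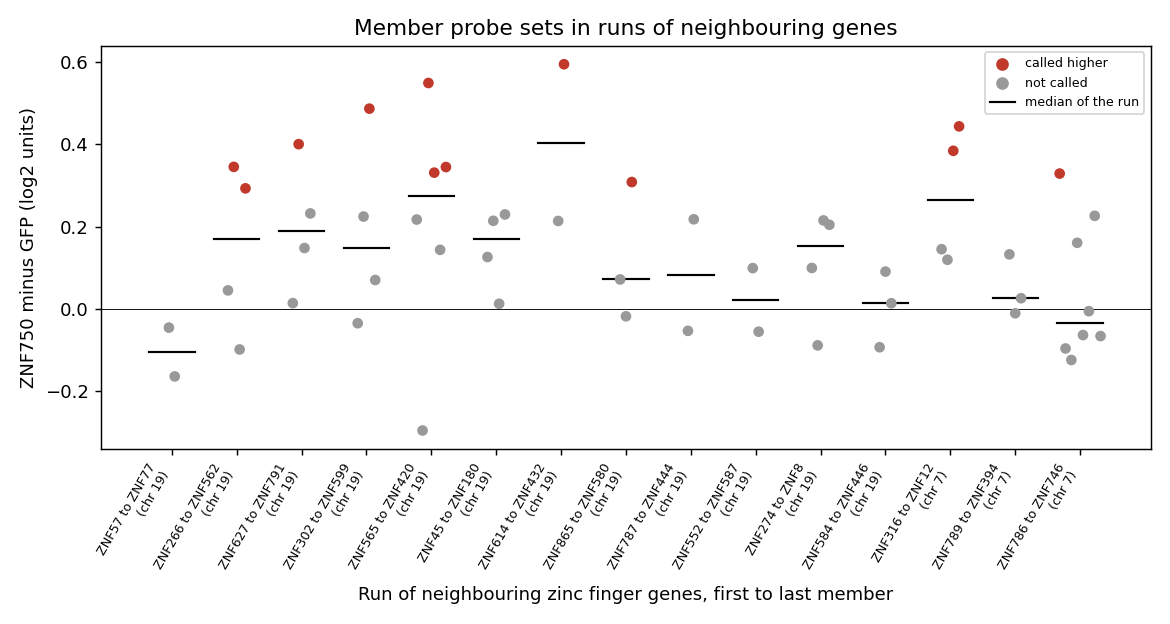
Difference between group means (log2 units) of each member probe set in the runs of neighbouring zinc finger genes on chromosomes 19 and 7, with the run's median as a bar. Of the 55 probe sets shown 12 rose and 0 fell, and the medians run from -0.10 (ZNF57 to ZNF77) to 0.40 (ZNF614 to ZNF432).

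Related ZNF genes can share probes. Array designers give the suffix _s_at or _x_at to probe sets that can hybridize to more than 1 transcript, and 63 of the 207 carry it. In the KRAB class 9 of 28 such probe sets rose and 0 fell (14 and 0 at an unadjusted p under 0.05), with a median of 0.16. Without the suffix 9 of 61 rose and 2 fell, with a median of 0.045. Without the box the counts were 4 and 3 of 34 with the suffix and 5 and 10 of 73 without it. At 7 or more, 657 of all 6992 probe sets with the suffix were called higher and 1548 lower, against 764 and 1492 of 8668 without it. At an unadjusted p under 0.05, 1202 of the 6992 were higher and 2442 lower. The KRAB median was thus above 0 in both kinds, and how far the signal of one gene reaches the probes of another was not tested.

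The threshold of 7 separates probe sets with nearly equal means. Just above it lay ZNF627 (224492_s_at, mean 7.002, difference 0.014), ZNF227 (7.008, 0.013) and ZNF207 (239937_at, 7.023, -0.46). Just below lay ZNF775 (6.999, 0.21), ZNF830 (6.998, -0.089) and ZNF500 (6.995, 0.012). Without ZNF595, 4 member probe sets had a GFP mean under 7 and 4 a ZNF750 mean under 7. Of these 8, the ZNF207 probe set just named was the only 1 called. ZNF595 on 227952_at had a GFP mean of 6.36 and a ZNF750 mean of 8.07. It thus reached 7 only through the ZNF750-labelled arrays. Of all ZNF probe sets 23.1% reached 7, against 28.7% of all probe sets. Of the 684 ZNF probe sets below it, 18 were called higher (2.63%) and 8 lower (1.17%), against 2.38% and 2.28% of the 38953 probe sets below 7.

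Other zinc finger families were read at the same threshold, where 9.07% of all probe sets were called higher and 19.4% lower. The ZBTB genes, which join fingers to a BTB dimerization domain, had 3 rises (ZBTB21 0.38, ZBTB4 0.33, ZBTB33 0.23) and 0 falls among 32 probe sets. That is 9.38% higher, near the 9.07% of all. Their median was 0.071, with 6 higher and 1 lower at an unadjusted p under 0.05. At that unadjusted threshold limma gave 2700 higher and 5015 lower of all 15660 probe sets at 7 or more. The ZSCAN and ZKSCAN genes, which carry a SCAN domain, had 1 rise (ZKSCAN1, 0.46, adjusted p = 0.0141) and 1 fall (ZSCAN9, by 0.40, adjusted p = 0.0147) among 11. Another probe set at 7 or more of each of these genes did not pass (ZKSCAN1 -0.090, ZSCAN9 -0.019). Centring gave 7 and 0 for ZBTB, and the other 2 scalings 5 and 0. Rises over all 54613 probe sets also went up, from 2348 as deposited to between 3141 and 4712. As deposited, the other probe sets at 7 or more of ZBTB21 (0.28) and ZBTB4 (0.11) did not pass. The ZFP names had 3 rises and 3 falls among 14, or 42.9% called. ZFP90, a KRAB gene, rose on 2 probe sets (0.63 and 0.29) and ZFP41 by 0.41, while ZFP36L1 fell by 0.38, ZFP91 by 0.25 and ZFP36L2 by 0.17. ZFP36L1 and ZFP36L2 bind RNA through fingers of another type and promote mRNA decay. ZFP36L2 was not called under any of the 3 other scalings, and ZFP91 not after cyclic loess or the second quantile normalization. As deposited, the other probe sets at 7 or more of ZFP91 (-0.21) and ZFP36L2 (-0.034) did not pass.

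The KLF and SP factors, binders of GC boxes and CACCC elements, had 5 rises and 2 falls among 24 probe sets, with a median of 0.070. That is 29.2% called, near the 28.5% of all probe sets at 7 or more. Centring gave 8 and 1, and the other 2 scalings 7 and 1, with KLF10 no longer called in any of the 3. Rises went up among all probe sets too under these scalings. KLF5 (0.64) and KLF4 (0.45) had the largest differences, KLF6 rose on 2 probe sets (0.35 and 0.30) and SP1 rose by 0.27 on 1. As deposited, the other probe sets at 7 or more of KLF6 (-0.11 and 0.14), KLF5 (0.24) and SP1 (0.21) did not pass. That of SP1 was called higher under the 3 other scalings, and that of KLF5 after centring. KLF3 fell by 0.29 and KLF10 by 0.27. SP100, SP110 and SP140, nuclear body proteins that share only the letters, were left out after their values had been seen. The ZSCAN and ZFP medians were -0.019 and 0.0093, and the first was above 0 under the 3 other scalings.

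The machinery that KRAB boxes recruit was read from a wider list, which also holds HUSH genes, DNA methylation genes and relatives of TRIM28. At 7 or more it had 34 probe sets of 19 genes, of which 5 rose and 4 fell. That is 26.5% called, near the 28.5% of all probe sets at 7 or more. TRIM28 itself read 10.60 and 10.59 with GFP and 10.56 and 10.57 with ZNF750 (-0.025 ± 0.044, adjusted p = 0.783). SETDB1 differed by -0.16 (adjusted p = 0.372). The median of the list was -0.046 as deposited and above 0 under the other scalings, which called 5 or 6 higher and 2 lower.

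Its called members went both ways. Of the HP1 genes, CBX1 fell by 0.33 (11.78 and 11.68 against 11.39 and 11.41, adjusted p = 0.00572), and CBX3 fell by 0.21 on 200037_s_at (adjusted p = 0.0133) but did not pass on its other probe sets. CBX5 rose by 0.32 on 212126_at (adjusted p = 0.0478) and differed by -0.28 on 242069_at (adjusted p = 0.0922). HDAC1 fell by 0.28 (adjusted p = 0.0102) and CHD3, a NuRD remodeller, by 0.29 on 208807_s_at (adjusted p = 0.0363). ATF7IP, the partner that stabilizes SETDB1, rose by 0.36 and 0.35 (adjusted p = 0.0229 and 0.00746) on 2 of 3 probe sets. MORC2, an ATPase of HUSH silencing, rose by 0.36 (adjusted p = 0.00557) on 1 of 2, and UHRF1, which guides DNA methylation, rose by 0.30 (adjusted p = 0.00611).

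The counts depended on how the arrays were scaled and tested. A stricter adjusted p under 0.01 left 6 members higher and 6 lower, 3 and 0 of them in the KRAB class. A fold of at least 1.5 with the usual threshold left 3 higher, both ZNF114 probe sets and ZNF432, and 2 lower, ZNF207 and ZNF827.

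**Figure D5:**
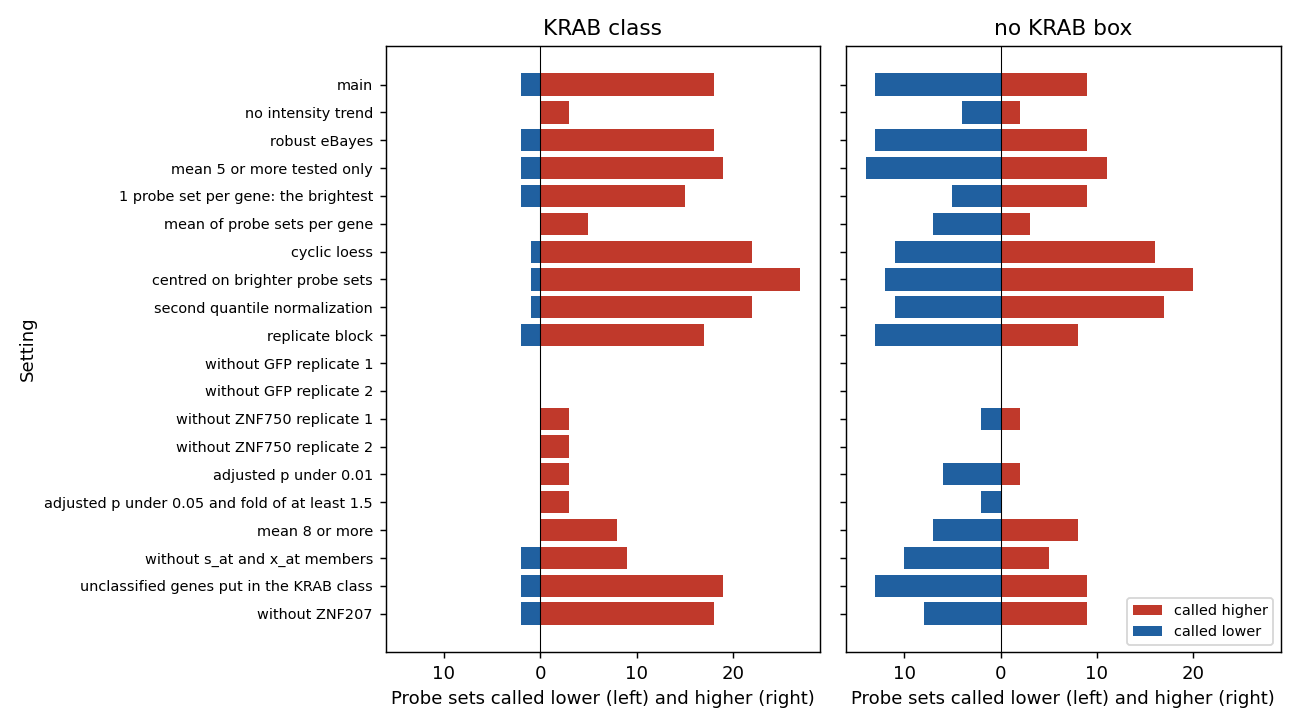
Number of probe sets called lower (left of 0) and higher (right of 0) in the KRAB class (89 probe sets) and without the box (107 probe sets) under each setting. KRAB rises run from 0 (either GFP array left out) to 27 (centred), and members without the box go from 9 rises and 13 falls to 20 rises and 12 falls when arrays are centred.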

How the data were processed

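Total RNA of 4 CaSki samples, 2 with GFP and 2 with ZNF750, was hybridized to Affymetrix HG-U133 Plus 2.0 chips. The deposited table holds log2 values. Per the submitters' processing notes the authors used RMA, and no version is given in the sources used here. The method corrects background, quantile normalizes and summarises probes, and it compresses differences of dim probe sets. Having 4 arrays limits the precision.

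Symbols are those of the platform annotation: 41091 probe sets had 1 symbol, 1801 several and 11721 none, and 62 controls were left out. All 158 member genes matched RefSeq by Entrez identifier, and 0 symbols changed. All 54613 other probe sets entered 1 limma fit (limma 3.58.1, R 4.3.3, lmFit, eBayes with an intensity trend, 2 residual degrees of freedom) on the log2 values, with Benjamini-Hochberg adjustment over all of them. The procedure was also run on simulated arrays with independent errors. These held no scaling shift and no effect shared by a culture, so that run cannot address either. An exact permutation test of 2 against 2 arrays cannot reach 0.05 and was not used. Replicate numbers were not used as pairs, since nothing ties same-numbered arrays to a shared culture.

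The members, the lists and the rules for naming were chosen with earlier results of these data known. The rule named ZNF595, ZNF750, the 12 largest called rises and up to 12 falls with groups that do not overlap (1 probe set per gene), members fixed by role, probe sets beside the threshold, the called corepressor genes and the 4 largest calls of other families. Every other gene given was chosen after its values were seen. Alternatives covered the variance prior, dim probe sets, the choice of probe set, scaling, the replicate number, thresholds, the membership threshold and leaving out each array. A split by number of fingers and by the letters of the KRAB box was planned and not run, since it needs protein sequences, which were not used here. The KRAB class was assigned by hand instead.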

Additional observations from a re-analysis of the deposited data

How the results depend on the processing

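Values are members called higher and lower of those tested, ZNF595 left out. With no intensity trend they were 5 and 4 (KRAB 3 and 0, without the box 2 and 4, all probe sets 520 and 754). Leaving out each array gave 0 to 5 and 0 to 2 (KRAB 0 to 3 and 0 to 0, without the box 0 to 2 and 0 to 2, all probe sets 8 to 267 and 1 to 661). The medians then ran from 0.038 to 0.090 for all members, 0.074 to 0.16 for KRAB and -0.0014 to 0.033 without the box. In the fits without GFP replicate 1 or 2, 9.09% and 11.1% of all calls were lower.

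With 1 probe set per gene, the brightest, 26 members were higher and 7 lower. Without the box these were 9 and 5 (median there 0.057), and 1541 and 2013 genes were called in all. There ZNF302 was at -0.034, ZNF827 at 0.016, ZNF330 at -0.14 and ZNF292 at 0.32 (the last against -0.017 for 212366_at). With the mean of a gene's probe sets the counts were 9 and 7 (KRAB 5 and 0, without the box 3 and 7, all genes 1043 and 1600), and ZNF7 was at 0.11. Among those that no longer passed there were ZNF146 (0.13), ZNF503 (0.28), ZNF302 (0.23), ZNF160 (0.12), ZNF268 (0.25), ZNF12 (0.17), ZNF3 (-0.075) and ZNF451 (-0.071). Averaging leaves fewer genes at 7 or more, 87 in place of 157.

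Cyclic loess gave medians of 0.11 for all members and 0.068 without the box, 1 fall in KRAB and 16 rises without the box. Centring gave 50 rises, medians of 0.12, 0.19 (KRAB) and 0.088 (without the box), 1 fall in KRAB, 20 rises without the box and 4712 rises and 42.0% lower among all calls. A second quantile normalization gave medians of 0.12 and 0.081 (without the box), 1 fall in KRAB and 17 rises without the box. All 28 rises were still called under these 3 scalings, and 12, 13 and 12 of the 15 falls. An adjusted p under 0.01 gave 6 and 6 (KRAB 3 and 0, without the box 2 and 6, all 704 and 1474). A fold of 1.5 gave 3 and 2 (KRAB 3 and 0, without the box 0 and 2, all 615 and 891).

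A mean of 8 or more gave 16 and 7 (KRAB 8 and 0, without the box 8 and 7), and of 6 or more 35 and 18. Without _s_at and _x_at probe sets the counts were 15 and 12 (KRAB 9 and 2, median 0.045, without the box 5 and 10). With the replicate block the counts were 26 and 15 (KRAB 17 and 2, without the box 8 and 13). Same-numbered arrays deviated together with r = 0.312 over probe sets, and with 2 pairs this does not establish pairing. The letter rules for KRAB and the split by number of fingers were not run. The cause of these changes was not tested.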

Other observations

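Below a mean of 7, the ZNF probe sets with the largest called differences were ZNF107 (243312_at, mean 6.17), higher by 0.97 (adjusted p = 0.00295), and ZNF277 (1555193_a_at, mean 4.69), lower by 1.02 on the log2 scale (-1.02, adjusted p = 0.0143). ZNF529, a member that rose, also rose on a dim probe set (215307_at, mean 3.52) by 0.68 (adjusted p = 0.0401). ZNF346, a member that did not pass, was higher by 0.49 on the dim 232753_at (adjusted p = 0.0305). A dim probe set of ZNF148, 203319_s_at, fell by 0.81 (adjusted p = 0.0271), while its member probe sets differed by 0.21 and 0.24. These probe sets were chosen after their values were seen, and RMA values this low can lie near background.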
